A study of Bos taurus with 9 samples.

Results

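The insulin-like growth factor (IGF) genes examined here are the ligands IGF1 and IGF2, the receptors IGF1R and IGF2R, and the binding proteins IGFBP2 to IGFBP7, 10 of the 24596 genes in the deposited expression table. They were taken by gene name, and 9 carried their symbol in the table (IGFBP3 in mixed case). The remaining gene, IGF1, stood under the older name IGF-I and was matched through its RefSeq synonyms. RNA came from cultured BEEC, the bovine epithelial cells that line the uterus, taken by scraping from 3 uteri, grown in medium with fetal bovine serum and frozen before use. Groups of 5 morulae were placed on these monolayers on day 4 after fertilisation and stayed until day 8. The BEEC of 3 wells were then pooled into 1 library of total RNA.

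The 3 groups differ in how the embryos had been pre-conditioned: HIGHGLUC (libraries 6, 10 and 14), LOWAA (libraries 8, 12 and 15) and control (libraries 5, 9 and 13). The labels give no concentrations for the regimes, and the BEEC of all groups, the controls included, had been in contact with embryos, so no library shows BEEC without embryos. The passage is given as 1 in the protocol and 2 in the sample fields. The labels do not say whether the libraries of a group came from separate cultures or uteri, so every p-value here measures only the spread between these libraries, which may be technical. The library numbers form 3 stretches with 1 library of each group: 5, 6 and 8, then 9, 10 and 12, then 13, 14 and 15. These are called runs 1, 2 and 3 below, and the labels do not say what they stand for.

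In the IGF system, IGF1 and IGF2 act on cells through IGF1R, a receptor tyrosine kinase that recruits IRS adaptor proteins and the PI3K-AKT-mTOR pathway. IGF2R, also known as the cation-independent mannose 6-phosphate receptor, takes up IGF2 for degradation and sorts lysosomal enzymes. The secreted IGFBPs hold the ligands in complexes, and proteases such as PAPPA release them. IGFs and their binding proteins are present in the uterine fluid of ruminants, where the early embryo develops before attachment.

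The 9 libraries held 2887097 (control 5) to 13969325 (control 9) exon reads, and 11839 genes had enough reads to be tested. Epithelial keratins were abundant (KRT8 averaged 4450 CPM, total exon reads scaled to the library size with TMM factors). KRT18, KRT19, KRT7 and CDH1 averaged 1999, 1594, 150 and 122 CPM. Of the 9 epithelial markers CLDN7 had 0 reads and EPCAM, a defining epithelial surface protein, had 13 reads in all libraries together. CLDN3 and CLDN4 had 66 and 6 reads. Stromal collagens and DCN were abundant too, with COL3A1, DCN, COL1A2 and COL1A1 at means of 5080, 2106, 2043 and 1734 CPM. VIM, LUM and PDGFRA averaged 543, 334 and 48.9 CPM, and THY1 and PDGFRB only 6.83 and 6.44 CPM. The 9 stromal markers summed to 10794–13170 CPM per library and the epithelial markers to 7771–9089 CPM. CPM are not scaled for exon length (4546 bp for COL3A1 and 1695 bp for KRT8), so these sums do not rank stromal against epithelial transcripts. The keratins and CDH1 thus go with an epithelial label, while the collagens and the few EPCAM and claudin reads go against a purely epithelial one. The cells are called BEEC here only as the labels name them. The 5 smooth muscle markers summed to 307–504 CPM per library. TAGLN, ACTA2 and CNN1 averaged 298, 84.2 and 49.5 CPM, while MYH11 and DES had 4 and 66 reads in all libraries together. Of 5 endothelial markers CDH5 and KDR had 0 reads, while PECAM1, VWF and TEK had 30, 81 and 106 in all libraries together. Of 6 leukocyte markers PTPRC and CD3E had 0 reads, CSF1R had 1 and CD68 had 22, while CD14 had 411 and CD163 had 677. The embryo markers in the table were SOX2, with 0 reads, and IFNT2, with 13 reads in all.

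Transcripts of 9 of the 10 genes were present in every library, and the binding proteins IGFBP7 and IGFBP2 far outweighed the rest. On the deposited RPKM scale (exon reads scaled for exon length and library size), which allows genes to be set against each other, IGFBP7 averaged 1251 ± 181 and IGFBP2 averaged 867 ± 214 (SD, n = 9 libraries). IGFBP7, a secreted matrix protein with low affinity for IGFs, ranged over 974.9–1509 RPKM, and IGFBP2 over 647–1220 RPKM, so these neighbours overlapped. IGFBP7 was the higher of the pair in 7 of the 9 libraries, the exceptions being HIGHGLUC 14 and control 13. Together they made up almost all of the summed RPKM of the 6 binding proteins, with 44.5–64.3% for IGFBP7 and 32.8–52.4% for IGFBP2 in single libraries.

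Next in level came IGF2R (46.6 ± 4.93 RPKM), IGFBP6 (38.9 ± 4.85 RPKM) and IGF1R (29.9 ± 2.45 RPKM; SD, n = 9 each). IGF2R and IGFBP6 overlapped, while the highest IGF1R value (33.0 RPKM) lay below the lowest IGFBP6 value (34.1 RPKM). IGFBP3 ranged over 12.9–46.5 RPKM, which spans the range of IGF1R. IGFBP5 (6.07 ± 1.37 RPKM) and IGFBP4 (5.29 ± 2.42 RPKM) did not differ beyond their spread. IGF2, at 2.04 ± 0.703 RPKM (SD, n = 9), was the lowest gene with exon reads and overlapped only with IGFBP4. The summed RPKM of the binding proteins was 1970–2524 in HIGHGLUC, 1832–2212 in LOWAA and 1929–2504 in control libraries, so the groups overlapped.

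**Figure D1:**
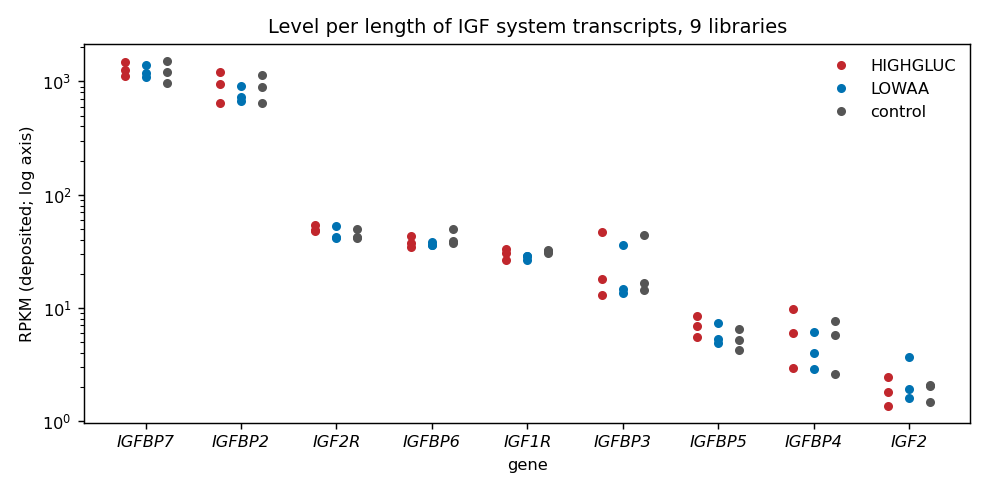
Deposited RPKM (log axis) of the 9 IGF genes with exon reads, ordered by their mean, with 1 point per library and groups HIGHGLUC, LOWAA and control from left to right within each gene. IGFBP7 and IGFBP2 lie at 647–1509 RPKM, and every other gene lies at or below 53.4 RPKM. The points of the groups overlap within each gene, except that IGF1R in LOWAA (26.4–28.9 RPKM) lies below control (30.4–32.7 RPKM).

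Of the ligands, IGF1 (ENSBTAG00000011082, chromosome 5:66532876-66604734; positions are those of the deposited table, with UMD3.1 as the build in the submitters' processing notes) had 0 exon reads in all 9 libraries. With 0 reads counted, as many as 3 could have been missed, which sets a limit of 0.215 to 1.04 CPM by library (here without TMM factors). Its introns held 6 reads in all, 3 in HIGHGLUC 6, 1 in LOWAA 8 and 2 in control 13. IGF1 transcripts were therefore not detectable in exons at this depth. Intervals and limits of this kind cover counting error only, since PCR reads without molecular identifiers are not independent molecules.

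IGF2 (ENSBTAG00000013066, chromosome 29:50046625-50065230), the fetal growth ligand that is expressed from 1 parental copy in mammals, was detected in every library with 684 exon reads in all. It had 7.69, 5.78 and 10.6 CPM in HIGHGLUC libraries 6, 10 and 14, and 6.84, 8.43 and 15.9 CPM in LOWAA libraries 8, 12 and 15, against 8.82, 8.73 and 6.39 CPM in control libraries 5, 9 and 13. LOWAA 15 stood highest, and all 3 groups overlapped. The log2 fold change was 0.02 ± 0.33 (SE) for HIGHGLUC minus control and 0.40 ± 0.32 for LOWAA minus control, and neither passed edgeR's quasi-likelihood test (unadjusted p = 0.957 and 0.248). Only 5.41% of its exon reads crossed an exon junction, against 31.8–56.1% for IGF1R, IGF2R, IGFBP2, IGFBP3, IGFBP5, IGFBP6 and IGFBP7, and 10.8% for IGFBP4.

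IGF1R (ENSBTAG00000021527, chromosome 21:8208821-8268093) is the signalling receptor of both ligands. In CPM of exon reads it was the only one of the 9 genes whose libraries did not overlap between 2 groups, and it did not pass the test. It had 112, 104 and 110.0 CPM in LOWAA libraries 8, 12 and 15, against 121, 126 and 119 CPM in control libraries 5, 9 and 13. All LOWAA libraries lay below all control libraries, as did 5.02% of the 11839 genes, while 4.69% lay above. The 9 genes overlapped in the other comparisons, where 3.78% of tested genes lay wholly above and 3.57% wholly below for HIGHGLUC minus control, and 4.43% and 3.87% for HIGHGLUC minus LOWAA. The log2 fold change LOWAA minus control was -0.16 ± 0.09 (95% interval -0.36 to 0.03; edgeR adjusted p = 1.00, unadjusted p = 0.0978), and it was -0.12, -0.27 and -0.11 within runs 1, 2 and 3. In the authors' deposited table the signed fold change for AA vs Control was -1.11, with a p of 0.000218 and an FDR of 0.0615. The HIGHGLUC libraries had 118, 100.3 and 127 CPM and overlapped with both other groups.

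IGF2R (ENSBTAG00000002402, chromosome 9:97638171-97740003) had 415, 392 and 449 CPM in HIGHGLUC libraries 6, 10 and 14 and 349, 365 and 444 CPM in LOWAA libraries 8, 12 and 15, against 356, 346 and 428 CPM in control libraries 5, 9 and 13. The groups overlapped, and in each group the run 3 library was the highest. HIGHGLUC minus control gave a log2 fold change of 0.15 ± 0.11 (95% interval -0.09 to 0.40; edgeR adjusted p = 1.00), which was positive in each run (0.22, 0.18 and 0.07). Per length, IGF2R exceeded IGF1R in every library. The ratio of their RPKM was 1.60, 1.79 and 1.62 in HIGHGLUC libraries, 1.43, 1.60 and 1.84 in LOWAA libraries, and 1.34, 1.26 and 1.65 in control libraries, so the groups overlapped.

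None of the 9 tested IGF genes passed an adjusted p of 0.05 in any comparison of the embryo groups, and 0.0% of the 11839 tested genes did so for HIGHGLUC minus control, 0.0% for LOWAA minus control and 0.0% for HIGHGLUC minus LOWAA (edgeR with Benjamini-Hochberg adjustment). At an unadjusted p under 0.05, 0 of the 9 passed in each comparison, against 2.98%, 4.0% and 3.18% of all tested genes in these comparisons, and 0 of the 9 in the test of any group difference, against 2.96%. DESeq2 called 0, 4 and 3 genes in the same order and 4 for any group difference (0.0%, 0.0338%, 0.0253% and 0.0338%), 0 of them IGF genes. The median log2 fold change of the 9 genes was 0.06, -0.12 and 0.12 in these comparisons, with 7, 4 and 8 genes above 0, and the medians over all tested genes were 0.00 in each. The comparisons share libraries, so these medians are not independent. In bulk libraries of this kind, fewer cells of a type and less RNA per cell cannot be told apart.

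**Figure D2:**
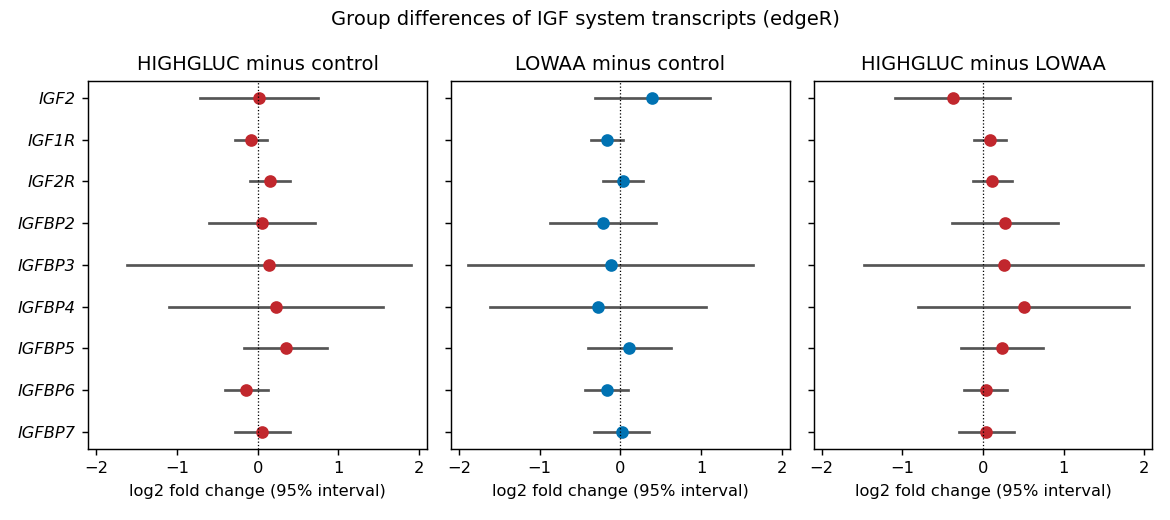
Log2 fold changes of the 9 tested IGF genes in the 3 comparisons of embryo groups, from the edgeR fit over 9 libraries, with points for the estimate and bars for the 95% interval. Every interval includes 0, and the widest belong to IGFBP3 (-1.63 to 1.90 for HIGHGLUC minus control) and IGFBP4.

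The binding proteins showed the same picture between groups. IGFBP2 (ENSBTAG00000005596, chromosome 2:105338357-105367369), which carries IGFs and can bind integrins, had 1192, 799.9 and 1531 CPM in HIGHGLUC libraries 6, 10 and 14 and 917, 863 and 1145 CPM in LOWAA libraries 8, 12 and 15, against 1113, 815 and 1462 CPM in control libraries 5, 9 and 13. The groups overlapped, and the run 2 library was the lowest and the run 3 library the highest in each group. The log2 fold change was 0.06 ± 0.28 for HIGHGLUC minus control and 0.27 ± 0.28 for HIGHGLUC minus LOWAA (edgeR adjusted p = 1.00 for both).

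IGFBP3 (ENSBTAG00000003994, chromosome 4:76705104-76712709), the main IGF carrier in mammalian blood, had 81.5, 22.1 and 31.5 CPM in HIGHGLUC libraries 6, 10 and 14 and 63.2, 24.3 and 25.6 CPM in LOWAA libraries 8, 12 and 15, against 76.2, 28.9 and 25.3 CPM in control libraries 5, 9 and 13. In each group 1 library, that of run 1, stood far above the others, and the groups overlapped. The log2 fold change HIGHGLUC minus control was 0.14 ± 0.73 (95% interval -1.63 to 1.90; edgeR adjusted p = 1.00). With run as a further term in the fit the estimate was 0.02, with an interval of -0.22 to 0.26 (edgeR adjusted p = 0.991).

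IGFBP4 (ENSBTAG00000008611, chromosome 19:41326677-41338255), an inhibitor of IGF action that is cleaved by PAPPA, had 13.8, 6.57 and 22.1 CPM in HIGHGLUC libraries 6, 10 and 14 and 6.55, 9.30 and 14.04 CPM in LOWAA libraries 8, 12 and 15, against 13.05, 5.98 and 17.8 CPM in control libraries 5, 9 and 13. The run 3 library was the highest of each group, and the groups overlapped. Its log2 fold change was largest for HIGHGLUC minus LOWAA, at 0.50 ± 0.56 (edgeR unadjusted p = 0.395).

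IGFBP5 (ENSBTAG00000007062, chromosome 2:105378990-105397646), a matrix-binding member on the same chromosome as IGFBP2, had 9.28, 5.91 and 7.52 CPM in HIGHGLUC libraries and 8.01, 5.95 and 5.33 CPM in LOWAA libraries, against 4.58, 6.97 and 5.72 CPM in control libraries. The highest value was in HIGHGLUC 6 and the lowest in control 5, and the groups overlapped. Its log2 fold change HIGHGLUC minus control was 0.35 ± 0.24 (edgeR unadjusted p = 0.169), and it was 0.98, -0.23 and 0.38 within runs 1, 2 and 3.

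IGFBP6 (ENSBTAG00000021467, chromosome 5:27044008-27047853), which prefers IGF2 over IGF1, had 38.7, 34.9 and 44.7 CPM in HIGHGLUC libraries 6, 10 and 14 and 39.7, 38.1 and 37.9 CPM in LOWAA libraries 8, 12 and 15, against 51.8, 39.1 and 41.0 CPM in control libraries 5, 9 and 13. Control 5 was the highest, and the groups overlapped. LOWAA minus control gave -0.17 ± 0.12 on the log2 scale (edgeR unadjusted p = 0.192), negative in each run (-0.38, -0.04 and -0.11). IGFBP7 (ENSBTAG00000019368, chromosome 6:74071066-74150456) had 1836, 1540.45 and 1376 CPM in HIGHGLUC libraries and 1738, 1404 and 1475 CPM in LOWAA libraries, against 1854, 1499.7 and 1221 CPM in control libraries. The run 1 library was the highest of each group, and the groups overlapped. Its log2 fold changes were between 0.01 and 0.06 in the 3 comparisons of embryo groups.

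**Figure D3:**
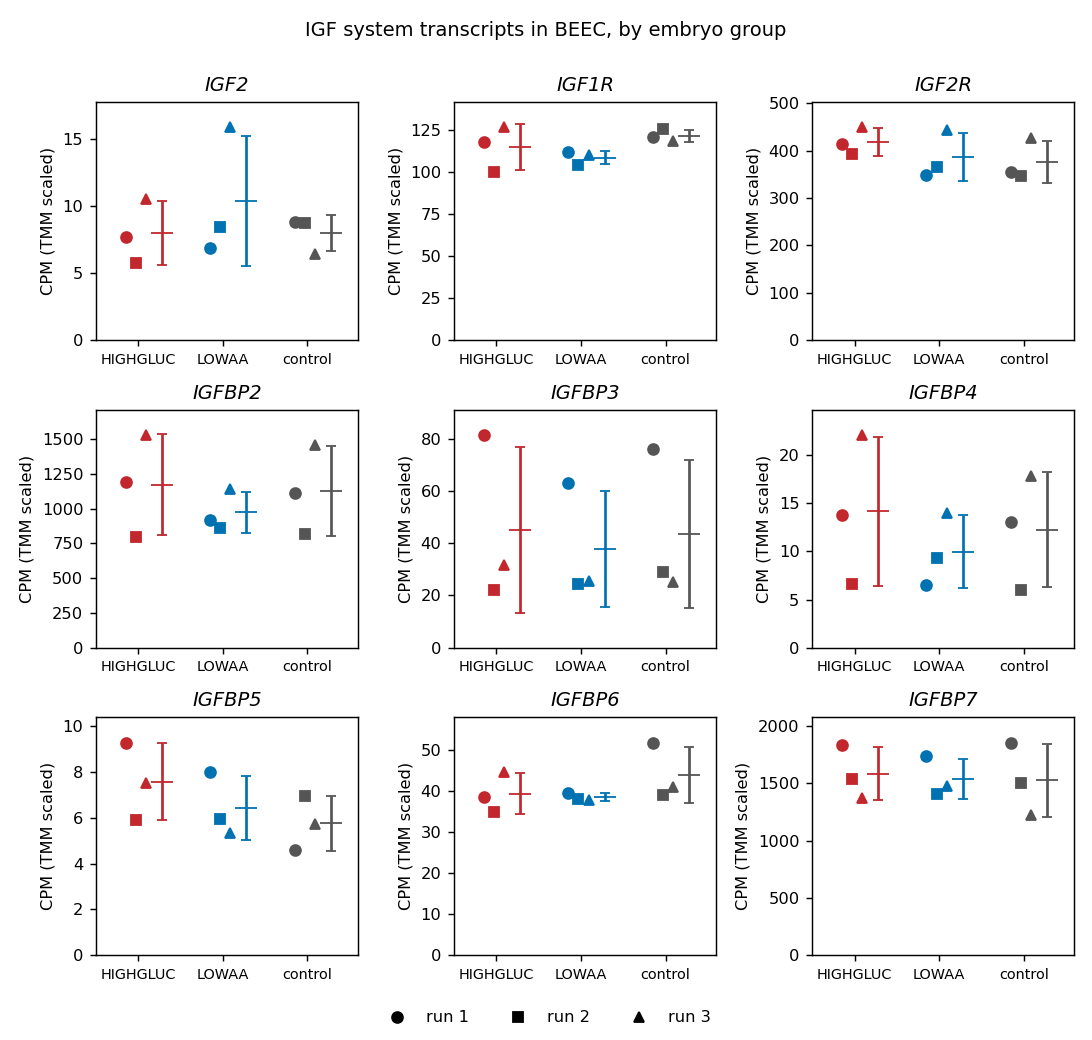
CPM of the 9 IGF genes in each library (y axes start at 0), by embryo group from left to right HIGHGLUC, LOWAA and control, with the mean and SD of the 3 libraries beside the points and the marker shape for the run of library numbers. IGF1R in LOWAA (104–112 CPM) lies below control (119–126 CPM), and for IGFBP3 the run 1 circle is the high point of every group (63.2–81.5 CPM).

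Between the runs of library numbers several IGF genes differed. A test of any difference between runs, added after the data had been seen, used the edgeR fit with group and run as terms. It called 5 of the 9 genes (IGFBP2, IGFBP3, IGFBP4, IGFBP7 and IGF2R) at an adjusted p under 0.05, beside 10.2% of the 11839 tested genes. Leaving out 1 library at a time, it called 3 to 5 of the 9. With run as a term 0 of the 9 genes passed in any comparison of the embryo groups, where the background was 3, 19 and 17 genes (0.0253%, 0.16% and 0.144%) for HIGHGLUC minus control, LOWAA minus control and HIGHGLUC minus LOWAA. At an unadjusted p under 0.05 that fit had 1 of the 9 genes in each comparison, beside 788, 979 and 956 of the 11839 tested genes. They were IGF2R for HIGHGLUC minus control (log2 fold change 0.16, unadjusted p = 0.0347, adjusted p = 0.709), IGF1R for LOWAA minus control (-0.17, 95% interval -0.34 to -0.00158, unadjusted p = 0.0481, adjusted p = 0.595) and IGFBP2 for HIGHGLUC minus LOWAA (0.23, unadjusted p = 0.0221, adjusted p = 0.486).

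IGFBP3 had the largest difference between runs of the 9 genes. It averaged 73.6 ± 9.38 CPM in run 1, 25.1 ± 3.47 CPM in run 2 and 27.5 ± 3.52 CPM in run 3 (SD, n = 3 libraries each, 1 of each embryo group). The 3 libraries of run 1 lay above all others, as was so for 6.06% of tested genes, while 5.13% lay below all others there. The log2 difference was 1.54 ± 0.11 for run 1 minus run 2 (edgeR adjusted p = 1.22e-07), a 2.90-fold difference, and 1.42 ± 0.11 for run 1 minus run 3 (adjusted p = 2.70e-07). Runs 2 and 3 did not differ by the test (-0.11 ± 0.12, adjusted p = 0.748). By its p for any run difference IGFBP3 ranked 3 of 11839 genes, and it was called in each of the 9 fits that left out 1 library.

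Junction reads of IGFBP3 were highest in run 1, but they are part of its exon reads (977 of 3071) and so no separate measurement. Intron reads of IGFBP3 were highest in run 1 too. Scaled to all exon reads without TMM, its exon junctions held 25.9, 18.1 and 24.2 CPM in HIGHGLUC, LOWAA and control libraries of run 1, against 6.12–10.4 CPM in runs 2 and 3. On the same scale its introns held 3.99 CPM in run 1 (exact 95% Poisson interval 3.20–4.91), 1.94 CPM (1.47–2.52) in run 2 and 1.21 CPM (0.826–1.70) in run 3. HIGHGLUC 6 carried the most, at 5.65 CPM, and the other run 1 libraries (2.89 CPM in LOWAA 8 and 2.77 CPM in control 5) lay close to LOWAA 12 of run 2 (2.67 CPM). Over all genes run 1 held fewer intron reads, at 7.59–8.78 per 100 exon reads, against 9.79–15.9 in the libraries of runs 2 and 3. The intron reads of IGFBP7 (36.0, 52.0 and 39.4 CPM in runs 1, 2 and 3) did not follow the order of its exon reads. By embryo group its introns held 54.0–98.3 CPM in LOWAA, 17.6–35.9 CPM in HIGHGLUC and 24.9–34.6 CPM in control libraries, so LOWAA lay above both. Introns of IGF2R held 16.0–23.5 CPM in LOWAA and 13.6–14.9 CPM in HIGHGLUC, while control libraries (14.2–19.5 CPM) overlapped with both. These intron differences were seen afterwards and were not tested, and their share over all genes was not counted.

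IGFBP2 was lowest in run 2 and highest in run 3, with 1074 ± 142, 826 ± 33.0 and 1379 ± 206 CPM in runs 1, 2 and 3 (SD, n = 3 each). Run 2 minus run 3 was -0.72 ± 0.09 on the log2 scale (edgeR adjusted p = 0.000433), and run 1 differed from run 2 by 0.37 (adjusted p = 0.0153) and from run 3 by -0.36 (adjusted p = 0.0329). The call for run 1 minus run 2 was lost without HIGHGLUC 6, HIGHGLUC 10, control 5 or control 9 (adjusted p of at most 0.128), and that for run 1 minus run 3 without HIGHGLUC 6, HIGHGLUC 14, LOWAA 8, control 5, control 9 or control 13 (at most 0.263). The call for run 2 minus run 3 was kept in each of the 9 fits (at most 0.0156). IGFBP4 had the same order, with 11.1 ± 3.99, 7.28 ± 1.77 and 18.0 ± 4.04 CPM. Its adjusted p for any run difference was 0.0465, and the call was lost without HIGHGLUC 6, HIGHGLUC 14, LOWAA 15, control 9 or control 13, where the adjusted p was at most 0.204. It was lost as well without a filter on low counts (adjusted p = 0.0630).

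IGFBP7 followed another order, with 1809 ± 62.4, 1481 ± 70.3 and 1357 ± 128 CPM in runs 1, 2 and 3 (SD, n = 3 each). Run 1 exceeded run 2 by 0.29 (edgeR adjusted p = 0.0142) and run 3 by 0.42 on the log2 scale (adjusted p = 0.00209). The first of these calls was lost without HIGHGLUC 6, LOWAA 12 or control 5 (adjusted p of at most 0.134), and the second was kept in each of the 9 fits (at most 0.0356). IGF2R averaged 373 ± 35.9, 367 ± 23.3 and 440.4 ± 11.3 CPM, with an adjusted p of 0.0241 for any run difference. That call was lost without LOWAA 8, LOWAA 12, LOWAA 15, control 5 or control 13 (adjusted p of at most 0.176). IGF1R, IGF2, IGFBP5 and IGFBP6 were not called between runs (adjusted p from 0.431 to 0.613), except IGF2 without control 13 (adjusted p = 0.0146). Pairwise, 11.0% of tested genes differed between runs 1 and 2, 4.02% between runs 1 and 3 and 2.08% between runs 2 and 3.

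**Figure D4:**
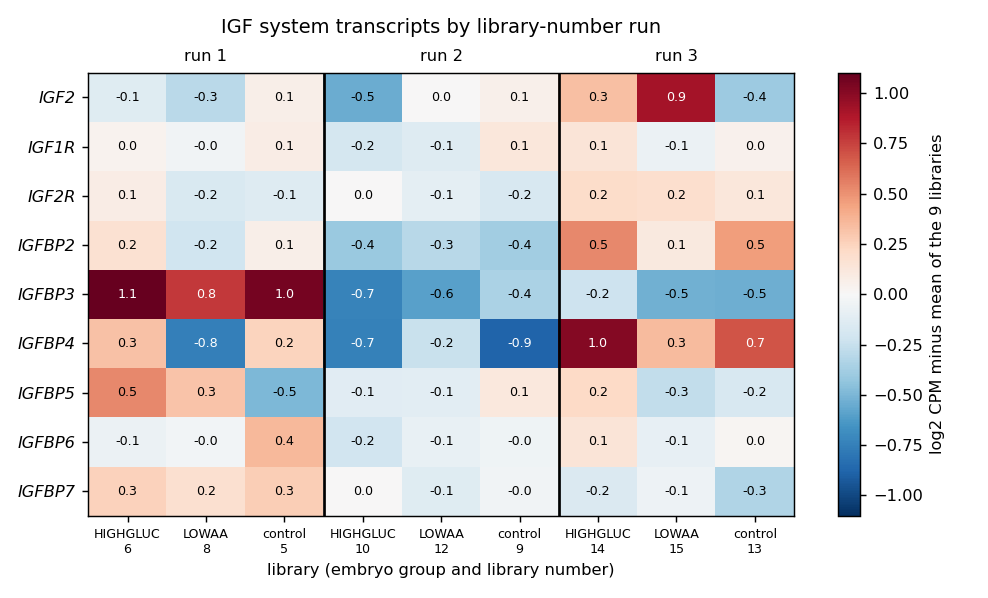
Log2 CPM of the 9 IGF genes in each library minus the mean of the 9 libraries (colour and printed number), with libraries ordered by run and, within a run, as HIGHGLUC, LOWAA and control. IGFBP3 is high in the 3 libraries of run 1, and IGFBP2 and IGFBP4 average lowest in run 2 and highest in run 3.

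Some cell type markers also moved between runs. The 9 stromal markers summed to 10794–11343 CPM in run 1, 11900–12798 CPM in run 2 and 11494–13170 CPM in run 3, and the epithelial markers to 8517–9089, 7771–8778 and 7846–8184 CPM. Single stromal markers differed in opposite ways: COL3A1 averaged 4168, 5801 and 5270 CPM in runs 1, 2 and 3, and THY1 10.7, 2.65 and 7.11 CPM (edgeR adjusted p for any run difference 0.000457 and 7.45e-05). Leukocyte markers summed to 16.2–17.6 CPM in run 1, 11.2–16.5 CPM in run 2 and 11.6–13.2 CPM in run 3. The part of these shifts in the run differences of the IGF genes was not tested. Run 1 also held the shallowest library, control 5, and the part of depth in these differences was not tested either.

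The standard deviation of log2 CPM over the 9 libraries was 0.76 for IGFBP3 and 0.67 for IGFBP4, which ranked 271 and 371 of 11839 genes, while the median gene had 0.17. IGF1R, at 0.12, varied less than the median gene. As a description over 9 libraries, the tested genes whose log2 CPM followed each IGF gene most closely were looked up among 9030 genes with a symbol and a mean of at least 5 CPM. IGFBP2 and IGFBP4 were each other's closest gene (Pearson r = 0.957), with mean levels of 867 and 5.29 RPKM. SYT11, a synaptotagmin (r = 0.949), and C3, the central complement protein (r = 0.944, mean 18934 CPM), followed IGFBP2 next.

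For IGFBP3 the closest genes were TENM3, a teneurin adhesion receptor (r = 0.972), ARSK, a lysosomal sulfatase (r = 0.968), and EPHA5, an ephrin receptor (r = 0.967). TENM3 averaged 68.8, 34.4 and 31.4 CPM in runs 1, 2 and 3. For IGFBP7 they were SRI, which encodes the calcium-binding protein sorcin (r = 0.979), EFEMP1, an extracellular matrix fibulin (r = 0.951), and FUCA1, a lysosomal fucosidase (r = 0.947). EFEMP1 averaged 1452, 918 and 739 CPM in runs 1, 2 and 3. The libraries share runs and embryo groups, and the closest of 9030 genes is high by selection. Closest to IGF2 was PARD3 (r = 0.914), to IGF1R HYPK (r = 0.939), to IGF2R EDEM1 (r = 0.924), to IGFBP5 FUNDC2 (r = 0.941) and to IGFBP6 HPS3 (r = 0.951).

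Other genes around the IGF system were read from 6 lists. Of the further family members, IGFBP1, INS and IGF2BP1 had 0 exon reads, and IGFALS, IGFBPL1, INSRR and IGF2BP3 had too few reads to be tested. IGFBP1, known in ruminants as a product of the uterine epithelium in early pregnancy, was thus not detectable at this depth. INSR, the insulin receptor, averaged 69.5 CPM in HIGHGLUC, 64.8 CPM in LOWAA and 64.2 CPM in control libraries, with a log2 fold change of 0.12 ± 0.11 for HIGHGLUC minus control. IGF2BP2, an RNA-binding protein named for IGF2 mRNA, had 0.25 ± 0.13 for HIGHGLUC minus LOWAA (edgeR unadjusted p = 0.0808). Neither passed the adjusted test.

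Of 10 proteases and inhibitors that act on the binding proteins, 6 were tested, and 0 were called between embryo groups. HTRA1, a secreted serine protease that can cleave IGFBPs, was the most abundant of them at a mean of 1944 CPM. PAPPA, the protease of IGFBP4, averaged 5.28 CPM in HIGHGLUC and 7.13 CPM in LOWAA libraries, a log2 fold change of -0.43 ± 0.25 (edgeR unadjusted p = 0.112). ADAM9 had 0.16 ± 0.10 for HIGHGLUC minus control (unadjusted p = 0.148). The PAPPA inhibitors STC1 and STC2 had 8 and 12 reads in all libraries, and PAPPA2 had 0.

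Of 29 genes of receptor signalling, 27 had a row in the table and 25 were tested, with 0 called in each comparison of the embryo groups. Of the 25, 15 were higher and 10 lower for HIGHGLUC minus control (median log2 fold change 0.02), 13 higher and 12 lower for LOWAA minus control (0.00), and 16 higher and 9 lower for HIGHGLUC minus LOWAA (0.07). IRS2, an adaptor of IGF1R and INSR, averaged 37.6 ± 6.48 CPM in HIGHGLUC and 28.8 ± 3.0996 CPM in LOWAA libraries, against 29.0 ± 4.87 CPM in control libraries (SD, n = 3 each). Its log2 fold change HIGHGLUC minus control was 0.38 ± 0.16 (edgeR unadjusted p = 0.0344, adjusted p = 1.00). RICTOR, a subunit of the mTORC2 kinase complex, averaged 95.4 ± 4.19 CPM in LOWAA libraries, against 118 ± 7.27 CPM in control libraries, a log2 fold change of -0.30 ± 0.09 (unadjusted p = 0.00601, adjusted p = 1.00).

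The growth hormone axis was tested with 6 of 6 genes, with 0 called between groups. A list of mannose 6-phosphate sorting genes, to which the receptors LRP1 and TMEM219 had been added, was tested with 6 of 6, again with 0 called. SOCS2, a feedback inhibitor of growth hormone signalling, had -0.68 ± 0.30 for HIGHGLUC minus LOWAA (edgeR unadjusted p = 0.0438, adjusted p = 1.00), and the transcription factor STAT5B had 0.20 ± 0.15 for LOWAA minus control. GNPTG, a subunit of the enzyme that starts the mannose 6-phosphate tag, had 0.13 ± 0.11 for HIGHGLUC minus control, and TMEM219, a cell surface receptor of IGFBP3, had -0.15 ± 0.13. Of 12 imprinted growth genes 6 were tested and 0 called. Of the 6, 6 had positive estimates for HIGHGLUC minus control (median log2 fold change 0.22), 3 for LOWAA minus control (median 0.00) and 6 for HIGHGLUC minus LOWAA (0.17), where 50.0%, 50.9% and 49.9% of all tested genes were higher. The neuronatin gene NNAT, with 177 reads in all, had 1.29 ± 0.63 for HIGHGLUC minus control (edgeR unadjusted p = 0.0693). NNAT averaged 3.17 ± 2.94 CPM in HIGHGLUC libraries, against 1.21 ± 0.626 CPM in control libraries (SD, n = 3 each). NDN, the necdin gene, had 0.38 ± 0.25 for HIGHGLUC minus control.

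Between runs, genes of these lists were called too, named here after their values were seen. HTRA1 averaged 2235, 1632 and 1965 CPM in runs 1, 2 and 3 (edgeR adjusted p for any run difference 0.000284), and ADAM12, another protease of IGFBP3, averaged 17.6, 9.53 and 15.7 CPM (adjusted p = 0.000428). CDKN1C, an imprinted inhibitor of the cell cycle, averaged 49.0, 24.4 and 29.9 CPM. TSC2, IRS2, GHR, LRP1, GNPTAB and MEST were also called, which makes 9 of the 51 tested genes of the 6 lists, beside 10.2% of all tested genes.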

How the data were processed

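BEEC total RNA was measured in 9 libraries, read as single reads of 50 bp per the protocol, although the file headers call the libraries paired. The authors deposited 1 table of 24596 genes. Per the file headers its total exon, unique exon, intron and exon-exon columns are raw read counts, the RPKM columns are total exon reads scaled for exon length and library size, and the exon length, identifier and position are other deposited columns of annotation. The deposited normalised expression values are a signal that was quantile normalised, since the sorted values of the 9 libraries are identical. The fold change of the authors' comparisons is a deposited score with a sign, and the authors' p-value and FDR come from Baggerley's test on that signal, per the file headers. The submitters' processing notes name Bowtie2, HTSeq 0.5.4p2 and build UMD3.1, without the role of each tool. Of the deposited columns 68 were read; 139 others that hold values of libraries stayed out.

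Total exon read counts were filtered with filterByExpr (minimum count 10), given TMM factors and fitted in edgeR 4.0.16 (R 4.3.3; quasi-likelihood, robust) by group alone over the 9 libraries together. P-values were adjusted with Benjamini-Hochberg over the 11839 tested genes, with a threshold of 0.05. CPM are scaled to the reads in tested genes and the TMM factors. Errors of fold changes are standard errors. The script was tested on simulated data. Chi-square per degree of freedom between libraries of 1 group was 8.37 to 27.0, so no 2 were the same library. All exon reads of the 9 tested members matched 1 place. Tables and figures used pandas 2.3.3 in Python 3.11.15.

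The members and lists were chosen with earlier results of these data known. The genes named from each list were those called and otherwise the 2 with the smallest p in a comparison; for similar genes, the 3 with the highest Pearson correlation of log2 CPM (prior count 2) were looked up. PIK3R2, GSK3B, H19, MEG3 and PEG3 were matched to no row by name and were not analysed here. Alternatives were DESeq2 1.42.0, limma-voom (limma 3.58.1), DESeq2 size factors, upper quartile factors, no filter, unique exon reads, fits of 2 groups, the runs as a term, and leaving out each library. The runs would have counted as pairs if every same-run pair of libraries had correlated above 0.1 after removal of group means. This held for 7 of 9 pairs (lowest 0.022), so the fit without runs is the one reported. Its standard errors take in the spread between runs. For HIGHGLUC minus control they were 0.73, 0.28 and 0.11 for IGFBP3, IGFBP2 and IGF2R. With run as a term they were 0.11, 0.09 and 0.07.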

Additional observations from a re-analysis of the deposited data

How the results depend on the processing

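Depth limits what can be seen in the low genes (IGF2, IGFBP4 and IGFBP5 had 529 to 902 exon reads in all), and 3 libraries per group with a spread between runs limit IGFBP3. No alternative called an IGF gene between embryo groups: with DESeq2, limma-voom, DESeq2 size factors, upper quartile factors, no filter, unique exon reads, 2 groups per fit, the replicate block of library runs, and each library left out, 0 of the 9 passed. Over all genes DESeq2 called 0, 4, 3 and 4 genes, and the block 3, 19, 17 and 24, for HIGHGLUC minus control, LOWAA minus control, HIGHGLUC minus LOWAA and any difference, where the fit without the block called 0 in each. The block was kept as an alternative because 2 of the 9 same-run pairs correlated at 0.1 or below; the 18 other pairs ranged from -0.70 to 0.42. With limma-voom the log2 fold change of IGF2 for HIGHGLUC minus control was -0.00894 and that of IGFBP3 for LOWAA minus control was 0.10, both of opposite sign and neither called; the cause was not tested. The other values computed with all libraries kept their direction, and 10 differences between runs (IGF2R and IGFBP4) passed the threshold only under an alternative. Leaving out 1 library ended the pairwise run calls of IGFBP2 for run 1 minus run 2 (4 of 9 fits) and run 1 minus run 3 (6 of 9) and of IGFBP7 for run 1 minus run 2 (3 of 9), 13 losses in all, with adjusted p of at most 0.263. It gave 8 pairwise run calls of IGF2R and IGFBP4 that the full fit did not make. It also turned the sign of values that were not called. For HIGHGLUC minus control the ranges were -0.22 to 0.20 for IGF2, -0.16 to 0.00766 for IGF1R, -0.18 to 0.29 for IGFBP2, -0.63 to 0.74 for IGFBP3, -0.24 to 0.71 for IGFBP4 and -0.082 to 0.22 for IGFBP7. For LOWAA minus control they were -0.048 to 0.63 for IGF2, -0.073 to 0.14 for IGF2R, -0.40 to 0.019 for IGFBP2, -0.73 to 0.48 for IGFBP3, -0.67 to 0.21 for IGFBP4, -0.080 to 0.29 for IGFBP5 and -0.12 to 0.18 for IGFBP7. For HIGHGLUC minus LOWAA they were -0.62 to 0.065 for IGF2, -0.50 to 0.86 for IGFBP3, -0.066 to 0.11 for IGFBP6 and -0.080 to 0.14 for IGFBP7, and for run 1 minus run 2 -0.033 to 0.065 for IGF2R. The number of IGF genes called between runs was 4 without a filter, 5 in the other settings with all libraries, and 3 (without LOWAA 15) to 5 with a library left out.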
